A study of Mus musculus with 28 samples.

Results

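The levels of 8 long noncoding RNAs, known for roles in the nucleus or for links to cell growth, were followed through 28 libraries. They make up 8 of the 24079 rows of the deposited count table. They are Neat1, Malat1, Kcnq1ot1, Miat, Gas5, Snhg1, Snhg3 and Snhg12, taken by gene symbol. The RNAs were selected on their measured levels with and without leptomycin B, Neat1 above all, with their levels across the siRNAs also in view. The leptomycin B comparison is therefore given as a description, without a test. The siRNA comparisons were tested although those levels were in view. Their p-values and counts of calls are therefore not independent of the choice of RNAs. All 8 passed the filter on low counts, Miat only through the libraries of the untagged clones. RNA-seq was done on mouse embryonic fibroblasts (strain C57BL/6x129Sv) that all carried RAS and DNP53 as transforming genes. Cyclin D1 was tagged in clones 12 and 14 (labelled Ctag) and untagged in clones 18 and 25. Each clone is a single clone, and each group of 2 libraries from the tagged or untagged clones holds 1 library from each of 2 clones. The tagged clones received siRNA against the FLAG or the HA tag, 1 of 3 siRNAs against cyclin D1 (labelled Qiagen, Nature and Life), the control siRNA SCR, leptomycin B at 20 ng/mL, or no treatment. The untagged clones received FLAG, HA or SCR siRNA. Untagged clone 18 carrying FLAG-mCherry-HA/PURO gave 2 libraries with HA siRNA and 1 with FLAG siRNA, and so did clone 18 carrying mCherry/PURO. Those 2 libraries with HA siRNA are repeats (REP1 and REP2) of 1 line. The 2 lines are called FLAG-mCherry-HA and mCherry below. Cells were collected the morning after an overnight treatment.

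Neat1 is the RNA scaffold of paraspeckles, nuclear bodies that hold proteins such as Pspc1 and Nono and certain RNAs. Malat1, made from the neighbouring gene, is an abundant RNA of nuclear speckles, where splicing factors gather. Kcnq1ot1 is an imprinted nuclear RNA transcribed against Kcnq1, and Miat (Gomafu) is a nuclear RNA best known from nervous tissue. Gas5, Snhg1, Snhg3 and Snhg12 carry small nucleolar RNAs (snoRNAs) in their introns. Once spliced, such host RNAs reach the cytoplasm, and many begin with the run of pyrimidines that links translation to growth and are degraded by nonsense-mediated decay, which depends on translation. Gas5 was named for its accumulation in growth-arrested cells. Leptomycin B blocks XPO1 (CRM1), an exporter of proteins and of certain RNAs from the nucleus. The libraries were made from poly(A) RNA, while Malat1 and the long form of Neat1 end in a triple helix instead of a usual poly(A) tail, so their counts need not follow their amounts in the cell.

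On the GRCm38 assembly with GENCODE M21, Neat1 lies on the minus strand of chromosome 19 from 5824708 to 5845478, and Malat1 on the same strand from 5795690 to 5802672, 22035 bases away. Both are annotated as lincRNAs whose exons cover the whole gene. Gas5 (chromosome 1, 161034422 to 161038539, plus strand) holds 10 annotated snoRNAs, and Snhg1 (chromosome 19, 8723475 to 8726443, plus strand) holds 8. Snhg3 (chromosome 4, 132348014 to 132353686, minus strand) holds 2, and Snhg12 (chromosome 4, 132308623 to 132311024, plus strand), 36989 bases away, holds 5. Kcnq1ot1 spans 93092 bases of chromosome 7 (143203458 to 143296549, minus strand) inside Kcnq1, and Miat lies on chromosome 5 (112213228 to 112229395, minus strand). Snhg3 overlaps the coding gene Rcc1 on its own strand and Gas5 overlaps Zbtb37 on the other strand, so reads of these pairs may have been split or shared in the counting. Per kilobase of exon, the median over the 28 libraries was 131 CPM (counts scaled to a common library size) for Malat1, 73.2 for Gas5, 59.6 for Snhg1, 51.6 for Snhg3, 40.9 for Neat1, 13.2 for Snhg12, 0.611 for Kcnq1ot1 and 0.0117 for Miat. The length is the union of all annotated exons, so this order depends on the annotation. It was 986 of 5673 bases for Snhg3 but all 2402 for Snhg12, whose median CPM were 50.9 and 31.7. For Neat1 it was 20771 bases, though its annotated transcripts run from 711 to 20771 bases.

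The 4 snoRNA hosts moved together in the siRNA comparisons below, and the sequences around their starts are shown for that reason. Each is a 95-base window from RefSeq on GRCm38.p6, from 45 bases before the annotated start to 50 bases into the transcript, on the strand of the gene. Capitals mark letters like a TATA box (the letters TATAAA on either strand, likewise the letters TATATA and likewise TATTTA, with overlapping matches merged) and the first run of at least 5 pyrimidines that starts between 5 bases before and 15 bases after the start. The windows are chr1:161035121-161035215 (plus) for Gas5, chr19:8723442-8723536 (plus) for Snhg1, chr4:132353637-132353731 (minus) for Snhg3 and chr4:132308633-132308727 (plus) for Snhg12.
Gas5: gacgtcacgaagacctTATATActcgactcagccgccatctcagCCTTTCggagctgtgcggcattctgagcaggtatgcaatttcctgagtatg
Snhg1: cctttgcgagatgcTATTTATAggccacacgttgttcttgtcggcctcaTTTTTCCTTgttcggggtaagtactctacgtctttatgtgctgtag
Snhg3: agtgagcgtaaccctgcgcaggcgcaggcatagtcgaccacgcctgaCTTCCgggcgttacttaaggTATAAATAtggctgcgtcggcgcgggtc
Snhg12: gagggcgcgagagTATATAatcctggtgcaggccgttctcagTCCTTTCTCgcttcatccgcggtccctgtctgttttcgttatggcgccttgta
All 4 windows held both features, which 3.28% of 32851 mouse promoter windows did. Counted with those windows, 8.64% held TATA-like letters and 35.7% held a pyrimidine run. The TATA-like letters began at position -29 in Gas5, -31 in Snhg1 and -32 in Snhg12, but at position 23, inside the transcript, in Snhg3. A second annotated start of Gas5 held neither feature. The 300-base promoter of Gas5 also held TGACGTCA, the letters of a cAMP response element, which 1.79% of promoters did. These matches describe letters and were not tested as sites.

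Library totals ran from 26558256 to 81512769 counts. Apart from Miat, each of the 8 RNAs had at least 643 counts in every library. The fibroblast markers Vim (2768 to 8405 CPM) and Col3a1 (93.1 to 517 CPM) were present in every library, while Col1a1 ran from 0.292 to 709.5 CPM and Thy1 from 0 to 218 CPM. Summed over 8 fibroblast markers, levels were 5155 to 12326 CPM. The 4 epithelial markers summed to 87.4 to 1958 CPM, nearly all of it Krt18, with Epcam at most 0.867 CPM. The 4 macrophage markers summed to 2.41 to 6.82 CPM with Emr1 at 0 in all libraries, and the 3 endothelial markers to at most 1.46 CPM. Ccnd1, the gene of cyclin D1, had 50.1 to 329 CPM with the 5 targeting siRNAs in tagged clones, against 1128 and 1287 CPM with SCR. Rn45s, the precursor of ribosomal RNA, held more than 2% of the counts of 4 libraries, of which HA clone 12 (2.22%), Nature clone 14 (2.42%) and Life clone 14 (3.48%) are tagged. In such bulk RNA, fewer cells of a type and less RNA per cell cannot be told apart. The p-values below come from 1 edgeR quasi-likelihood fit of all 28 libraries and are adjusted by the Benjamini-Hochberg method over 15099 genes, and a gene is called where the adjusted p is under 0.05. The fit holds the level of each clone, so a p-value sets a change against the scatter left after clone and treatment, which may be technical, and not against the spread between clones.

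Leptomycin B was set against no treatment in both tagged clones. Neat1, the paraspeckle scaffold, had 346 CPM in clone 12 and 218 CPM in clone 14 with leptomycin B, against 780 and 1358 CPM in the untreated libraries. The lower level with leptomycin B was present in both clones and the groups did not overlap, with a wider gap in clone 14. The fitted level was 3.97-fold lower, a log2 fold change of -1.99, and 124 of the 15099 genes had a lower one. At least a 2-fold lower level was seen for 3.67% of all genes, and 9.99% of genes were called in either direction.

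Malat1, the neighbour of Neat1, had the opposite direction. It had 1309.8 and 1668 CPM with leptomycin B, against 541 and 567 CPM without, in clones 12 and 14. Both treated libraries were above both untreated ones, by 2.73-fold in the fit (log2 fold change 1.45), where 6.82% of all genes were at least 2-fold higher. The value rested on single libraries, at 0.88 without leptomycin B clone 14 and 1.84 without leptomycin B clone 12. The untreated libraries were on the low side of the range of Malat1 in tagged clones, which ran from 250.5 to 2274 CPM, and both leptomycin B libraries lay inside that range. For Neat1, leptomycin B clone 14 was the lowest of all 28 libraries. Leptomycin B clone 12 (346 CPM) lay above both libraries with Nature siRNA (332 CPM in clone 12 and 325 CPM in clone 14).

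Gas5 had 178 and 283 CPM with leptomycin B, against 262 and 358 CPM without, a log2 fold change of -0.44. It was lower in each clone, but the treated clone 14 library lay above the untreated clone 12 library. The other snoRNA hosts were within 0.25 of 0 on the log2 scale, at -0.04 for Snhg1, -0.03 for Snhg3 and -0.22 for Snhg12. Kcnq1ot1 had 49.0 and 64.6 CPM with leptomycin B, against 52.1 and 81.9 CPM without (log2 fold change -0.23). The median log2 fold change over all genes was 0.03. Xpo1, the target of leptomycin B, had 1238 and 1193 CPM with it, against 701 and 635 CPM without. Macrophage markers summed to 6.82 and 4.17 CPM with leptomycin B, against 3.17 and 2.41 CPM without, and fibroblast markers to 9820 and 8282 CPM, against 8246 and 6787 CPM. All 8 fibroblast markers had a log2 fold change above 0, with a median of 0.38. The part of either list in these differences was not tested. Miat had 0 counts in both leptomycin B libraries, against 5 and 0 counts in the untreated ones, so no fold is given.

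**Figure D1:**
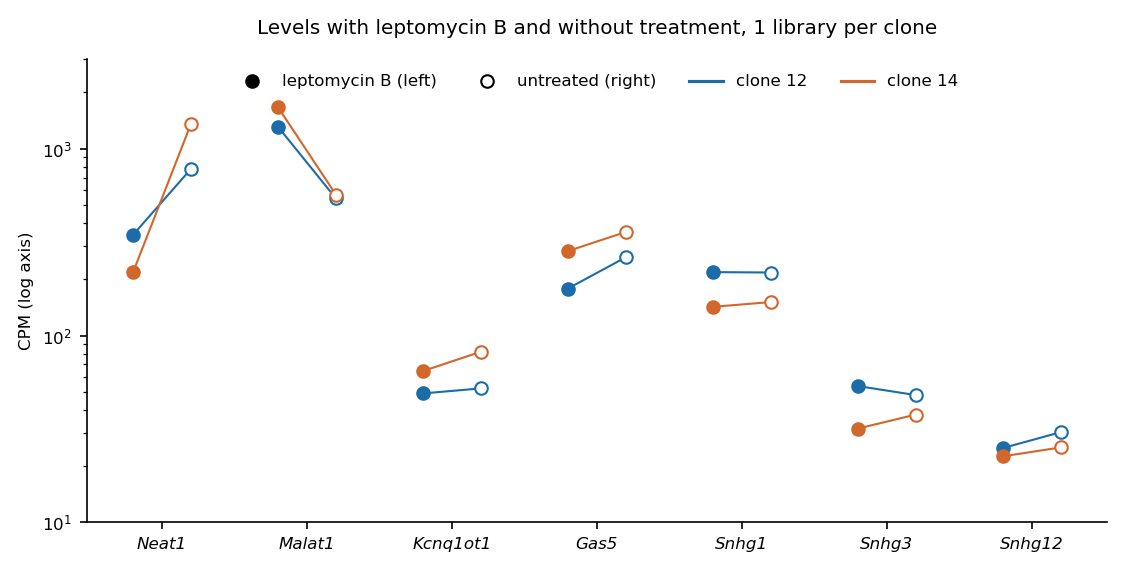
Levels of 7 of the 8 RNAs (CPM, log axis) with leptomycin B (filled points, left) and without treatment (open points, right); lines join the libraries of clone 12 (blue) and clone 14 (orange). Neat1 is lower and Malat1 higher with leptomycin B in both clones, while the snoRNA hosts and Kcnq1ot1 move less.

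Proteins in the lists here and below stand for their mRNAs, since no protein was measured. Among mRNAs for proteins of the same nuclear bodies, 12 of 29 for paraspeckle proteins were above 0 and 17 below with leptomycin B. Their median log2 fold change was -0.10. The 4 furthest from 0 were all lower. Pspc1, a core paraspeckle protein, had 42.9 and 22.7 CPM with leptomycin B, against 66.5 and 40.9 CPM without (log2 fold change -0.73). Fam98a had 102 and 88.3 CPM with leptomycin B, against 209 and 179.8 CPM without (-1.03), Zc3h6 changed by -0.78 and Srsf10 by -0.61. Of 26 splicing factors of nuclear speckles, 12 were above 0 and 14 below, with a median of -0.03. Srsf5 was furthest from 0, at 0.56, followed by Clk2 at -0.45, Srrm1 at -0.38 and Tra2a at 0.34. Of the 16 other snoRNA hosts measured, 9 were above 0 and 7 below, with a median of 0.21. Snhg5 (-0.81) and Snhg4 (-0.60) were lower, while 2810008D09Rik, named Snhg20 in RefSeq, and Snhg9 were higher, by 1.06 and 0.59, at levels of at most 6.06 CPM. The median was -0.07 over 13 snoRNP proteins, 0.08 over 13 nonsense-mediated decay factors, 0.11 over 8 genes of the Kcnq1 domain, 0.09 over 14 genes near Neat1 and Malat1, -0.05 over 17 other nuclear or imprinted lncRNAs and -0.25 over 12 factors that process the ends of Malat1 and Neat1.

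The 5 genes whose levels followed those of Neat1 most closely were Pcdh7 (r = 0.87), Enah (0.85), Naa30 (0.81), Pspc1 (0.81) and Has2 (0.80). Has2 had at most 0.42 CPM in clone 14, against 12.2 to 98.1 CPM in clone 12, so its clone 14 values rest on few counts. The r values are Pearson correlations of log2 CPM over the 28 libraries after centring each cell line, among 11772 genes. They describe libraries that share clones and treatments. Malat1 and Neat1 had r = 0.08 on the same measure, although they are neighbours. Malat1 and Kcnq1ot1 had r = 0.84.

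Across the siRNAs, Neat1 fell with Nature siRNA. It had 332 CPM in clone 12 and 325 CPM in clone 14 with Nature siRNA, against 912 and 1039.8 CPM with SCR. Both Nature libraries were below both SCR libraries by a wide margin, with a log2 fold change of -1.58 (SE 0.31, edgeR adjusted p = 0.0031), or 2.99-fold lower. With FLAG, HA, Qiagen and Life siRNA, Neat1 ran from 892 to 1377 CPM in clone 12 and from 399.7 to 896 CPM in clone 14. The Nature libraries were the lowest in each clone, with Qiagen clone 14 next at 399.7 CPM. Against the mean of those 4 siRNAs, which uses no SCR library, Nature gave -1.38 (SE 0.26, edgeR adjusted p = 0.00203), and -1.25 against the mean of FLAG, HA and Qiagen alone (edgeR adjusted p = 0.0054). Without Nature clone 12 the adjusted p was 0.0699 against SCR and 0.0929 against the other 4. Without the clone block these were 0.221 and 0.159.

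No change of Neat1 was called with the other 4 siRNAs against SCR. The log2 fold changes were -0.09 with FLAG (edgeR adjusted p = 0.945), -0.25 with HA (0.641), -0.66 with Qiagen (0.248) and 0.17 with Life (0.803). Averaged over the 3 cyclin D1 siRNAs, Neat1 gave -0.69 (SE 0.24, 95% interval -1.15 to -0.23, edgeR adjusted p = 0.0978), and it passed the threshold without Qiagen clone 12 (-0.87, adjusted p = 0.0275). Life siRNA gave 1377 and 876 CPM, above the other 4 siRNAs in clone 12 but below FLAG in clone 14. Against the mean of the other 4 this was a rise of 0.81 (SE 0.22, edgeR adjusted p = 0.0225), which was 0.50 (adjusted p = 0.207) once Nature was left out of that mean. It was also not called without Life clone 12 (0.58, adjusted p = 0.377), Life clone 14 (1.02, 0.0692) or the libraries over 2% Rn45s (1.10, 0.0715).

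Over all groups, Neat1 averaged 282 ± 90.4 CPM with leptomycin B and 328 ± 5.26 CPM with Nature siRNA (SD, n = 2 each), and these ranges overlap. Next came untagged clones with FLAG siRNA at 587 ± 214 CPM, tagged clones with Qiagen at 646 ± 348, untagged clones with SCR at 692 ± 279 and with HA at 753 ± 442 CPM (SD, n = 2 each). The FLAG-mCherry-HA line with FLAG siRNA had 801 CPM and the mCherry line 798 CPM, 1 library each. Tagged clones had 843 ± 229.7 CPM with HA, 926 ± 43.1 with FLAG, 976 ± 90.2 with SCR, 1069 ± 409 untreated and 1126 ± 354 with Life siRNA (SD, n = 2 each). With HA siRNA, Neat1 was at 1178 ± 45.1 CPM in the FLAG-mCherry-HA line and 882 ± 82.1 CPM in the mCherry line (SD, n = 2 each). From untagged FLAG upward each group of 2 overlapped the groups next to it in order of the mean, so neighbours in that order did not differ beyond their spread. Groups further apart could be separate, as the FLAG-mCherry-HA line (1146 and 1209.6 CPM) was from the mCherry line (940.1 and 824 CPM) with HA siRNA. The SD of those 2 lines is between repeats of 1 line and not between clones.

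**Figure D2:**
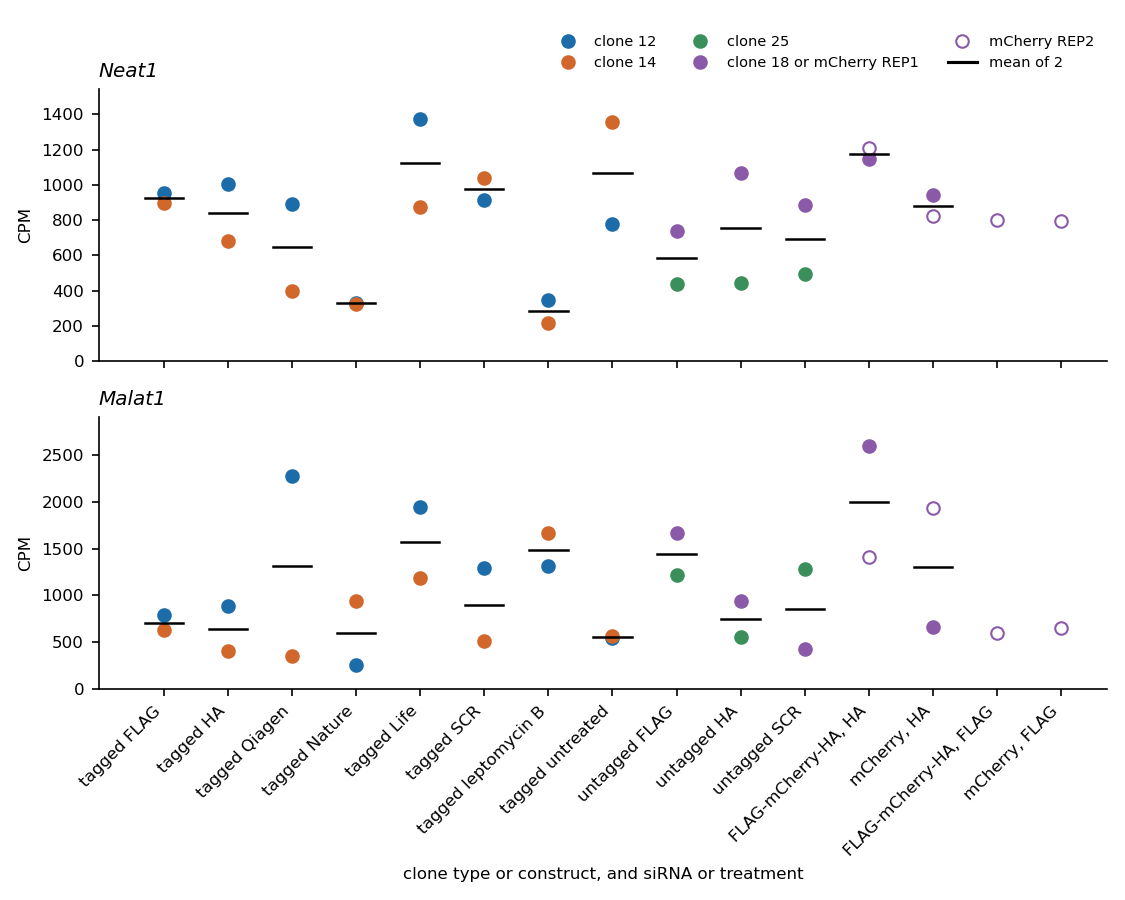
CPM of Neat1 (top) and Malat1 (bottom) in every library by clone type or construct and siRNA or treatment; points are libraries coloured by clone, open points are the REP2 mCherry libraries and bars are means of 2. The Nature and leptomycin B libraries sit at 218 to 346 CPM of Neat1, below all others, while Malat1 spreads from 250.5 to 2596 CPM within and between groups.

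Malat1 varied more than any other of the 7 well-counted RNAs, from 250.5 to 2596 CPM over the 28 libraries, or 10.4-fold, against 6.31-fold for Neat1 and 2.30-fold for Gas5. The spread lay within groups. With Qiagen siRNA it had 2274 CPM in clone 12 and 347 CPM in clone 14, and with Nature siRNA 250.5 CPM in clone 12 and 935 CPM in clone 14. It was called in none of the 21 comparisons tested. Against the other 4 siRNAs, Nature gave -0.50 (SE 0.65, 95% interval -1.78 to 0.78, edgeR adjusted p = 0.691) and Life 1.01 (SE 0.57, 95% interval -0.11 to 2.13, adjusted p = 0.265). A rise or fall of such a size could not be told from none at this spread.

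Kcnq1ot1, with 32.5 to 91.9 CPM, was also called in none of the 21. It was lowest with Nature siRNA in clone 12, at 32.5 CPM, the library in which Malat1 was lowest as well. Life siRNA gave 89.3 and 78.4 CPM, the highest of the 5 targeting siRNAs in each clone, against 32.5 to 87.2 CPM in clone 12 and 38.6 to 76.5 CPM in clone 14 with the other 4. The log2 fold change was 0.64 (SE 0.28, edgeR adjusted p = 0.145), and without Nature clone 14 it was 0.84 (adjusted p = 0.023). Kcnq1 itself had at most 0.227 CPM in tagged clones.

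The snoRNA hosts moved in opposite directions with 2 siRNAs against cyclin D1. All 4 rose with Nature siRNA and fell with Life siRNA against the mean of the other 4 targeting siRNAs. The contrast of each siRNA with the mean of the other 4 includes the other of these 2 siRNAs, so the values of the 4 hosts are given also against SCR and against FLAG, HA and Qiagen alone. Snhg12 had 54.5 CPM in clone 12 and 44.1 CPM in clone 14 with Nature siRNA, against 38.2 and 33.6 CPM with SCR. FLAG, HA and Qiagen gave 35.1 to 39.4 CPM in clone 12 and 30.4 to 31.6 CPM in clone 14, so Nature was highest in each clone. Life siRNA gave 28.4 and 24.4 CPM, lowest of the 6 siRNAs in each clone.

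The rise of Snhg12 with Nature siRNA was 0.63 against the other 4 (SE 0.08, edgeR adjusted p = 8.61e-05), 0.45 against SCR (SE 0.11, adjusted p = 0.0161) and 0.53 against FLAG, HA and Qiagen (adjusted p = 0.000663). Its fall with Life siRNA was -0.50 against the other 4 (SE 0.09, edgeR adjusted p = 0.00154), -0.44 against SCR (SE 0.11, adjusted p = 0.0202) and -0.36 against FLAG, HA and Qiagen (adjusted p = 0.0183).

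Snhg3 showed the widest gap. It had 83.4 and 56.9 CPM with Nature siRNA and 34.6 and 27.5 CPM with Life siRNA, against 45.8 and 45.2 CPM with SCR. FLAG, HA and Qiagen gave 49.3 to 54.8 CPM in clone 12 and 35.6 to 42.5 CPM in clone 14, between Nature and Life in each clone. Nature gave a rise of 0.74 against the other 4 (SE 0.11, edgeR adjusted p = 0.000295), 0.59 against SCR (SE 0.15, adjusted p = 0.0209) and 0.61 against FLAG, HA and Qiagen (adjusted p = 0.00324). Life gave a fall of -0.71 against the other 4 (SE 0.13, edgeR adjusted p = 0.00119), -0.57 against SCR (SE 0.15, adjusted p = 0.0275) and -0.56 against FLAG, HA and Qiagen (adjusted p = 0.00931). Rcc1, which overlaps Snhg3 on the same strand, had 124 and 113 CPM with Nature siRNA and 82.7 and 102.7 CPM with Life siRNA, against 122 and 121 CPM with SCR.

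Gas5 had 335 and 410.2 CPM with Nature siRNA and 219 and 234 CPM with Life siRNA, against 271 and 357 CPM with SCR. Life was lowest of the 6 siRNAs in each clone, while Qiagen (343 CPM) lay above Nature in clone 12. The fall with Life was -0.51 against the other 4 (SE 0.11, edgeR adjusted p = 0.00488), -0.45 against SCR (SE 0.13, adjusted p = 0.0436) and -0.44 against FLAG, HA and Qiagen (adjusted p = 0.0166). The rise with Nature was 0.38 against the other 4 (SE 0.10, edgeR adjusted p = 0.0258), but it was not called against SCR (0.25, adjusted p = 0.232) or against FLAG, HA and Qiagen (0.27, adjusted p = 0.16).

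Snhg1 had 342 and 202 CPM with Nature siRNA and 210.3 and 124 CPM with Life siRNA, against 239 and 183 CPM with SCR. In each clone Nature was highest and Life lowest of the 6 siRNAs. Against the other 4, Nature gave a rise of 0.42 (SE 0.09, edgeR adjusted p = 0.00626) and Life a fall of -0.46 (SE 0.10, adjusted p = 0.0044). Against FLAG, HA and Qiagen the values were 0.32 (edgeR adjusted p = 0.0461) for Nature and -0.38 (0.0207) for Life. Neither was called against SCR, at 0.32 (adjusted p = 0.0981) for Nature and -0.38 (0.0601) for Life.

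**Figure D3:**
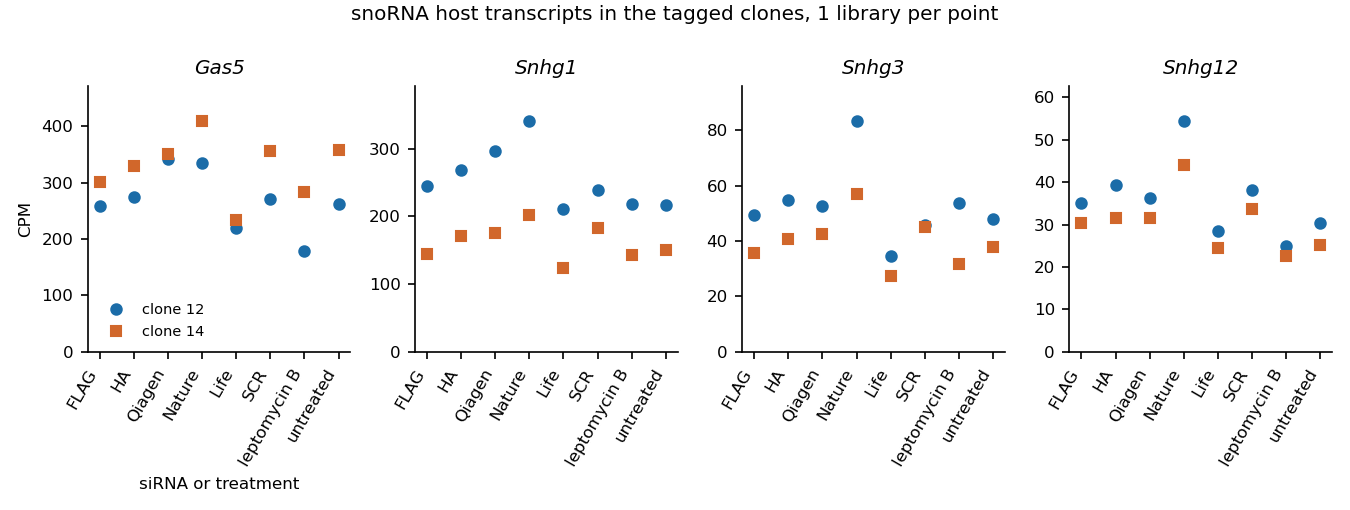
CPM of Gas5, Snhg1, Snhg3 and Snhg12 in the tagged clones by siRNA or treatment, 1 library per point (clone 12 circles, clone 14 squares). Nature siRNA is highest and Life siRNA lowest of the siRNAs in both clones for Snhg1, Snhg3 and Snhg12, while for Gas5 Qiagen is above Nature in clone 12.

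In counts, 5 of the 8 RNAs were called for Nature against the other 4, where 9.93% of all genes were. For Life 5 were called, where 14.2% of all genes were. The RNAs were chosen with the siRNA levels in view, so these counts are not independent of that choice. Against SCR, 3 were called with Nature siRNA (8.56% of all genes). With Life siRNA 4 were called against SCR (8.29% of all genes), 1 of them Miat, at 4 and 2 counts with Life and 0 with SCR. Miat passed the filter only through the untagged clones, so its call is not read as a result. No RNA of the 8 was called with FLAG siRNA against SCR (2.17% of all genes), HA (4.11%) or Qiagen (5.33%), nor for FLAG (1.32%), HA (4.86%) or Qiagen (13.7%) against the other 4. In these 6 comparisons 1, 1, 2, 1, 0 and 1 of the 8 had an unadjusted p under 0.05, and DESeq2 called none of the 8. Miat, near 0 counts, was the 1 for FLAG and for HA against SCR, and 1 of the 2 for Qiagen against SCR.

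The calls rest on few libraries. Snhg3 and Snhg12 were called for Nature and Life against the other 4 whichever 1 library was left out (adjusted p at most 0.0448) and without the libraries over 2% Rn45s (at most 0.0498). Other calls ended with 1 library left out, while the fold changes kept their direction. For Nature against the other 4, Gas5 (0.38, adjusted p = 0.218) and Snhg1 (0.37, 0.155) were not called without Nature clone 12, nor Gas5 without Nature clone 14 (0.37, 0.0911). For Life against the other 4, Gas5 (-0.38, adjusted p = 0.149) and Snhg1 (-0.39, 0.112) were not called without Life clone 14. For Nature against SCR, Snhg3 was not called without Nature clone 12 (0.51, adjusted p = 0.208) or SCR clone 12 (0.38, 0.389), nor Snhg12 without Nature clone 12 (0.42, 0.147) or SCR clone 12 (0.43, 0.163). For Life against SCR, Gas5 and Snhg12 were not called whichever 1 of the 4 libraries compared was left out. Gas5 then ran from -0.58 to -0.33 (adjusted p 0.0700 or more) and Snhg12 from -0.47 to -0.42 (0.0798 or more). Snhg3 was not called for Life against SCR without Life clone 12 (-0.53, adjusted p = 0.171), Life clone 14 (-0.61, 0.117) or SCR clone 14 (-0.34, 0.244). Without the clone block, none of the 8 was called in these 4 comparisons (lowest adjusted p 0.138). Rn45s took 0.563% and 2.42% of counts in the Nature libraries and 1.51% and 3.48% in the Life libraries, and its part in these results beyond the fit without such libraries was not tested. Of the 8 fibroblast markers, 2 were above 0 and 6 below with Nature siRNA against the other 4 (none called), and all 8 were above 0 with Life siRNA (Pdgfra called, 0.65, edgeR adjusted p = 0.0295). Their part in these results was not tested either.

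**Figure D4:**
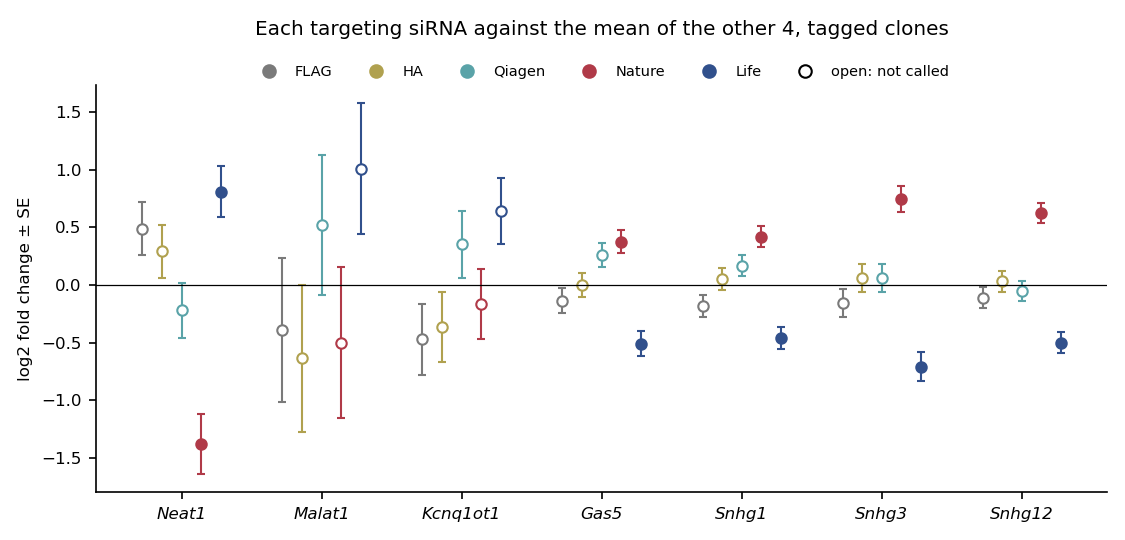
Log2 fold change of 7 RNAs for each targeting siRNA against the mean of the other 4 in tagged clones, with standard errors; filled points are called at an edgeR adjusted p under 0.05. The 4 snoRNA hosts sit at 0.38 to 0.74 with Nature siRNA and -0.71 to -0.46 with Life siRNA, and Neat1 at -1.38 with Nature.

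Over all 28 libraries, the levels of the 4 hosts followed each other closely within cell lines. Pearson's r of centred log2 CPM was 0.88 for Gas5 and Snhg1, 0.90 for Snhg1 and Snhg3, 0.89 for Snhg1 and Snhg12, 0.83 for Gas5 and Snhg12, 0.83 for Snhg3 and Snhg12, and 0.74 for Gas5 and Snhg3. The 5 genes most like Gas5 were all snoRNA hosts or a snoRNA row. They were 1500012F01Rik (named Zfas1 in RefSeq, r = 0.93), Snhg4 (0.91), Snord12 (0.90), Snhg5 (0.89) and Snhg1 (0.88). Snord12 is encoded in an intron of Zfas1, so reads of these rows may be shared. These values describe libraries that share clones, treatments and depth.

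Other snoRNA hosts were called in the same directions. This list, like the gene lists below, was chosen with earlier results of these data known. Its counts are therefore not independent of that choice. Of 16 measured, 9 rose and none fell with Nature siRNA against the other 4, where 4.44% of all genes rose and 5.50% fell, and their median log2 fold change was 0.46, against 0.02 over all genes. With Life siRNA none rose and 6 fell, where 7.58% of all genes rose and 6.62% fell. The median was -0.42, against 0.03 over all genes. The mean for Nature includes Life and that for Life includes Nature, so these counts and medians are not independent of each other. They are not given against FLAG, HA and Qiagen alone, so how far they depend on this overlap was not tested. 1500012F01Rik (Zfas1) had 179 and 167 CPM with Nature siRNA and 94.2 and 86.6 CPM with Life siRNA, against 129.7 and 134 CPM with SCR. It rose by 0.52 with Nature (SE 0.09, edgeR adjusted p = 0.0012) and fell with Life (-0.65, SE 0.10, adjusted p = 0.000407). Snhg8 rose by 0.64 (adjusted p = 0.000666), Snhg9 by 1.42 (0.00458) and Snhg4 by 0.50 (0.0066) with Nature. Snhg5 (-0.74, adjusted p = 0.000115), Snhg4 (-0.71, 0.000805) and Snhg7 (-0.59, 0.0116) fell with Life. Without Nature clone 12, the adjusted p was 0.0708 for 1500012F01Rik, 0.13 for Snhg9 and 0.241 for Snhg4 in the Nature comparison. Against FLAG, HA and Qiagen alone, Snhg4 was not called for Nature (0.35, adjusted p = 0.0825). In clone 14 Qiagen (40.8 CPM) lay above Nature (38.1 CPM) for Snhg4. For 1500012F01Rik, Snhg8 and Snhg9, Nature was highest of the siRNAs in each clone. Snhg7 was not called for Life without Life clone 12 (-0.50, adjusted p = 0.188) or Life clone 14 (-0.67, 0.0823).

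**Figure D5:**
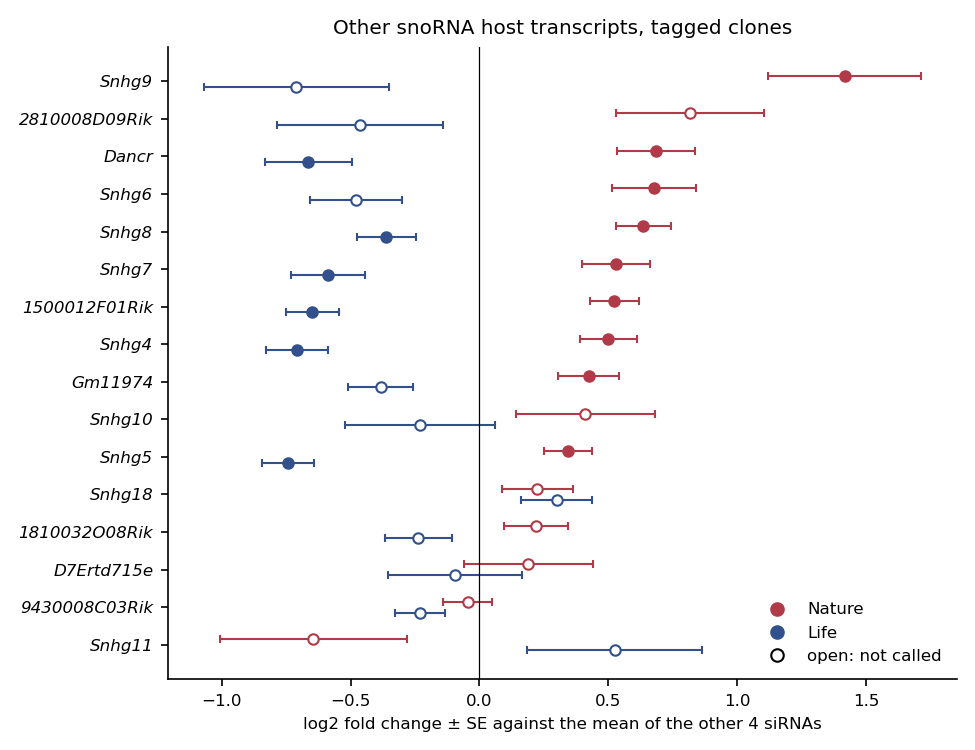
Log2 fold change with standard error of the 16 other snoRNA host transcripts for Nature (red) and Life (blue) siRNA, each against the mean of the other 4 siRNAs in tagged clones; filled points are called. Nature calls lie between 0.34 and 1.42 and Life calls between -0.74 and -0.36.

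Among mRNAs for 13 proteins that form or assemble snoRNPs, the particles around snoRNAs, 8 fell and none rose with Life siRNA against the other 4. Their median was -0.36, where 6.62% of all genes fell and 7.58% rose. This list too was chosen with earlier results of these data known. Nop58, a core protein of box C/D particles, had 312 and 261 CPM with Life siRNA, against 472 and 472 CPM with SCR, and fell by 0.76 against the other 4 (SE 0.10, edgeR adjusted p = 6.35e-05). Dkc1, the pseudouridine synthase of box H/ACA particles, fell too (-0.46, edgeR adjusted p = 0.00265), as did the chaperone Nolc1 (-0.45, 0.00683) and Gar1, another H/ACA protein (-0.36, 0.016). The other 4 that fell were Nop10, Nop56, Naf1 and Ruvbl1. Without Life clone 14, Dkc1 (adjusted p = 0.113), Nolc1 (0.13) and Gar1 (0.204) lost the call, and without Life clone 12 so did Nolc1 (0.0698) and Gar1 (0.0906). With Nature siRNA 2 of the 13 rose, Nop10 by 0.49 (adjusted p = 0.0121) and Nop58 by 0.38 (0.0105), and both lost the call without Nature clone 12 (0.33 and 0.33, adjusted p = 0.411 and 0.243). Against FLAG, HA and Qiagen alone, without Life, neither was called, at 0.41 for Nop10 (adjusted p = 0.0533) and 0.21 for Nop58 (0.229). Nhp2l1, another C/D protein, fell with Nature siRNA (-1.37, edgeR adjusted p = 1.41e-07), at 147 and 98.6 CPM, against 344 and 278 CPM with SCR.

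The mRNAs of several paraspeckle proteins fell with Nature siRNA, the siRNA with which Neat1 fell. Of 29 measured, 7 fell and 2 rose against the other 4, with a median of -0.15. Of all genes, 5.50% fell and 4.44% rose. The list of 29 was also chosen with earlier results of these data known. Pspc1 had 34.0 and 20.1 CPM with Nature siRNA, against 59.97 and 47.6 CPM with SCR, below every other siRNA in each clone. It fell by 1.03 against the other 4 (SE 0.12, edgeR adjusted p = 2.35e-05). Rbm7 fell by 1.42 (edgeR adjusted p = 1.63e-07) and Hnrnpk fell by 0.64 (4.78e-05). Nudt21, a subunit of the cleavage factor that sets where RNAs end, fell as well (-1.53, adjusted p = 1.25e-05). With Life siRNA 1 of the 29 fell, Rbm14 (-0.49, edgeR adjusted p = 0.0314). It lost the call without Life clone 12 (-0.45), Life clone 14 (-0.53) or any of 4 other libraries. In clone 12 Qiagen (36.4 CPM) lay below Life (38.5 CPM) for Rbm14.

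The remaining lists also held calls against the other 4, where 9.93% of all genes were called with Nature and 14.2% with Life siRNA. Whether these lists differed from all genes was not tested. With Nature siRNA, 3 of 26 splicing factors of nuclear speckles rose (Srsf9 by 0.86, Srsf4 by 0.54, Tra2a by 0.33) and Tra2b fell (-0.40). The value of Srsf9 rests on low Qiagen libraries in the mean of the other 4, at 14.7 and 11.1 CPM. In clone 14 Nature (66.4 CPM) lay below FLAG (69.8 CPM) and HA (82.7 CPM) for Srsf9. In the Kcnq1 domain 2 of 8 measured genes rose, Phlda2 by 1.38 and Tssc4 by 0.51. Tug1 fell (-0.46) among 17 other nuclear or imprinted lncRNAs, Rpp40 (-0.46) fell among 12 factors that process the ends of Malat1 and Neat1, and none of 13 nonsense-mediated decay factors or 14 genes near Neat1 and Malat1 was called. With Life siRNA, Srsf6 (-0.45) and Srrm1 (-0.33) fell among the splicing factors, Casc3 (-0.29) among the decay factors, and Pop4 (-0.41), Elac2 (-0.34) and Rpp30 (-0.31) among the end-processing factors. Of the genes near Neat1 and Malat1, Cdc42ep2 (0.98) and Ehbp1l1 (0.31) rose and Frmd8 (-0.74) fell. H19 rose by 0.81 with Life siRNA through clone 12 alone, with 86.0 CPM there, against 39.4 to 60.8 CPM with the other 4, and it was at 0 in clone 14 with all 5. None of the 8 Kcnq1 domain genes was called with Life siRNA. Except for Srsf9 and Frmd8, and for Casc3, for which this was not run, each of these lost the call without at least 1 of the libraries compared.

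Tag siRNA, the mean of FLAG and HA, addresses cyclin D1 only where it is tagged. None of the 8 RNAs was called for tag siRNA against SCR in tagged clones (3.86% of all genes called) or in untagged clones (2.68%). None was called for the difference of these responses (0.00662% of all genes, 1 gene), for the 3 cyclin D1 siRNAs against SCR (5.40%) or against tag siRNA (6.99%), or for HA against FLAG siRNA (3.33%). With FLAG siRNA alone (2.02%) and HA siRNA alone (2.16%) against SCR in untagged clones none was called either. In the order given, 1, 0, 1, 2, 2, 0, 0 and 0 of the 8 had an unadjusted p under 0.05, and DESeq2 called none in any of them. Intervals for the hosts were narrow with tag siRNA in tagged clones, where Gas5 gave -0.10 (95% interval -0.33 to 0.12), Snhg1 -0.06 (-0.26 to 0.14), Snhg3 -0.04 (-0.30 to 0.21) and Snhg12 -0.08 (-0.27 to 0.11). In untagged clones Gas5 gave 0.00 (95% interval -0.22 to 0.23), with 352 and 363 CPM in clone 25 with FLAG and HA siRNA, against 351 CPM with SCR. Clone 18 gave 207 and 214 CPM with FLAG and HA siRNA, against 214 CPM with SCR, so the siRNAs differed by less than the clones.

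SCR siRNA itself was set against no treatment in the tagged clones, where none of the 8 was called (5.29% of all genes). An unadjusted p under 0.05 was found for 2, Snhg12 and, near 0 counts, Miat. Snhg12 came nearest, with 38.2 and 33.6 CPM with SCR, against 30.4 and 25.2 CPM untreated. SCR was higher in each clone, by 0.37 on the log2 scale (SE 0.11, 95% interval 0.15 to 0.59, edgeR adjusted p = 0.0608). DESeq2 called it (0.40, adjusted p = 0.00129), as did edgeR with relative log expression size factors (adjusted p = 0.0418) or a filter of at least 1 CPM (0.0336). With untreated libraries in place of SCR, tag siRNA gave a rise of Snhg12 of 0.29 (edgeR adjusted p = 0.0291) and cyclin D1 siRNA one of 0.35 (0.0141). Against SCR the corresponding values were -0.08 and -0.03, so the sign for Snhg12 depended on the control. The 8 RNAs were selected on levels that include the untreated libraries. The p-values and calls against those libraries are therefore not independent of that choice and are not read as results.

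The FLAG-mCherry-HA line was set against the mCherry line in 3 matched pairs. None of the 8 RNAs was called, nor was any gene by edgeR (0%), and 0 of the 8 had an unadjusted p under 0.05, while DESeq2 called 15 genes and none of the 8. Neat1 had 1146, 1209.6 and 801 CPM in the FLAG-mCherry-HA libraries, against 940.1, 824 and 798 CPM in their mCherry partners. It was higher in each pair, by 0.28 on average (SE 0.24, 95% interval -0.20 to 0.76, edgeR adjusted p = 0.665). Malat1 had 2596, 1409.7 and 599 CPM, against 658, 1940.5 and 655 CPM, higher in 1 pair and lower in the other 2. Snhg3 had 66.9, 82.5 and 80.8 CPM, against 62.4, 110.02 and 76.5 CPM, and the mCherry library at 110.02 CPM is the one with 2.75% Rn45s.

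Miat separated the clones. It had 146, 81 and 86 counts with SCR, FLAG and HA siRNA in untagged clone 25, and 17, 13 and 13 counts in untagged clone 18. The 6 mCherry libraries, made from clone 18, had 4 to 19 counts. In the tagged clones it had 0 to 6 counts, with 0 in 8 of 16 libraries and at most 3 in 12 of them. The SCR libraries had 0 counts in both tagged clones, and with a floor of 3 counts per library the mean level there was at least 34.0-fold lower than the 1.87 CPM of the untagged clones. That mean rests mainly on clone 25, and the bound was 9.16-fold against clone 18 alone (0.504 CPM) and 58.8-fold against clone 25 alone (3.23 CPM). With 2 clones a side this was not called by edgeR over the 4 SCR libraries alone, in which no gene of 13233 was called (0%) and 1 of the 8 RNAs had an unadjusted p under 0.05. DESeq2 called 177 genes there. Miat entered these fits only through the untagged side, so no p is given for it. No fold is given for Miat among tagged libraries, which are at or near that floor. The bounds above hold for the SCR libraries only. With FLAG siRNA the gap to clone 18 was narrower, at 0.125 CPM in clone 12 against 0.342 CPM in clone 18. The mCherry library REP2 with HA siRNA (0.115 CPM) lay below that clone 12 library.

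The other RNAs differed between clones by less. Medians are over the 8 libraries of each tagged clone, with all siRNAs, leptomycin B and no treatment. In each untagged clone they are over 3 libraries, with SCR, FLAG and HA siRNA, so the treatments differ between these medians. Median Snhg1 was 242 CPM in clone 12 and 161 CPM in clone 14, against 178 CPM in clone 25 and 143 CPM in clone 18. Median Snhg3 was 50.9 and 39.2 CPM in tagged clones 12 and 14, against 33.4 and 63.8 CPM in untagged clones 25 and 18, so the untagged clones lay on either side of the tagged ones. Gas5 had medians of 267 and 339.9 CPM in tagged clones 12 and 14, against 352 and 214 CPM in untagged clones 25 and 18. Within an untagged clone the 3 siRNA libraries agreed to within 1.03-fold for Gas5 and within 1.05-fold for Snhg1.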

How the data were processed

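RNA was extracted with Trizol, libraries were made with the TruSeq Stranded mRNA kit after oligo-dT selection and single reads of 100 bases were sequenced, per the labels' protocols. The deposited values are raw counts per gene, made by the authors on mm10. The submitters' processing notes name HTSeq 0.6.1p1, Bowtie2 2.2.3, TopHat2 2.0.13, CASAVA 1.8.2 and FastQC, without the role of each. The strand setting and the gene annotation were not given in the sources used here. The 22 rows without a gene ID held at most 0.0137% of a library and were left out. Titles carry n=3 or n=4, whose meaning is not given, and each library was used as 1 sample.

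Counts were normalised with TMM and tested with edgeR 4.0.16 (R 4.3.3, limma 3.58.1), with a quasi-likelihood fit over 28 libraries in 15 groups, after a filter by group that left 15099 genes. CPM use TMM-scaled totals, and log2 CPM a prior count of 2. Clone, or the matched mCherry pair, was a block, since libraries of a clone deviated together from their group means. The lowest correlation was 0.834 over 56 tagged pairs, 0.862 over 6 untagged pairs and 0.384 over 2 mCherry pairs with HA siRNA. In a group of 2 the deviations are equal and opposite. Each correlation is therefore counted once for each clone or repeat, and the pairs are not all distinct. The fit had 11 residual degrees of freedom. Tagged and untagged SCR libraries were compared in a fit of their own, without a block. The standard error is the absolute log2 fold change divided by the root of F, and the 95% intervals are 1.96 standard errors to either side. DESeq2 1.42.0, other scalings and filters, no block, fits of only the libraries compared, fits without the libraries over 2% Rn45s and each library left out in turn were the alternatives. The scripts were tested on simulated data.

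The members and the gene lists were chosen with earlier results of these data known. From each list, up to 4 genes with the smallest p were named (for leptomycin B, the 4 largest absolute log2 fold changes), beside all genes called where there were 5 or fewer, the overlapping genes Rcc1 and Kcnq1, and Xpo1 and Ccnd1 as checks. The contrasts with FLAG, HA and Qiagen alone, and leaving out libraries other than SCR clone 12 for single siRNAs against SCR, were chosen after seeing the data. Loci are from GENCODE M21 and promoters from RefSeq on GRCm38.p6, which held 7 of the 8 RNAs.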

Additional observations from a re-analysis of the deposited data

How the results depend on the processing

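Without a replicate block for the clone, 0 of the 8 RNAs were called for Nature or Life siRNA against SCR or against the other 4, and genes called over all fell to 123, against 1500, for Nature and to 148, against 2145, for Life against the other 4. The block changed no other count of the 8 RNAs called. Without the libraries over 2% Rn45s, Life siRNA called 0 RNAs against SCR and 2 against the other 4, and tag siRNA called 1 against SCR in tagged clones (Miat, near 0 counts). Against untreated libraries in place of SCR, tag siRNA called 1 RNA (Snhg12, 0.29) and cyclin D1 siRNA 2 (Snhg12, 0.35, and Neat1). The RNAs were selected on levels that include those untreated libraries, Neat1 above all, so calls against them are not read as results. SCR against untreated called 1, Snhg12, with relative log expression size factors, with a filter of at least 1 CPM or with DESeq2. The same limit holds for these calls. DESeq2 called 1, Miat, between tagged and untagged SCR libraries, which is not read either, since Miat passed the filter through the untagged side. The causes were not tested.

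With each library left out in turn, the RNAs called ranged from 0 to 4 for Nature against SCR, 0 to 1 for Life against SCR, 2 to 5 for Nature and 2 to 6 for Life against the other 4, and 0 to 1 for cyclin D1 siRNA against SCR and against tag siRNA. H19 ranged from -2.55 without Life clone 12 to 1.57 without HA clone 12 for Life against the other 4. With leptomycin B, Neat1 ranged from -2.51 to -1.30 and Malat1 from 0.88 to 1.84. In DESeq2, 2097 genes were called for Nature and 2716 for Life against the other 4. With only the libraries compared, 4494 genes were called for leptomycin B, against 1508. With 1 library per clone and treatment, the calls rest on pairs of libraries, and Miat is limited by its counts.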
